A study of Mus musculus with 4 samples.

Results

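Muscle chaperones and small heat shock proteins were examined as a set of 10 named genes in bulk RNA sequencing of mouse primary myotubes. The genes were chosen by name as chaperones of the sarcomere and stress proteins of muscle: Hspb1, Hspb2, Hspb7, Hspb8 and Cryab (small heat shock proteins), Bag3, Unc45b, Smyd1, Hsp90aa1 and Hspa8. All 10 were found among the 53647 genes of the count tables and all passed the filter on low counts. Wild-type (WT) myoblasts had been isolated from limb muscles of pups aged 2 to 3 days, differentiated into multinucleated myotubes and harvested 72 h after the start of differentiation. Both conditions, control and EDA-A2, shared this culture and had 2 libraries each. EDA-A2 myotubes received recombinant EDA-A2, a ligand of the TNF receptor superfamily member EDA2R, at 250 ng/mL for 24 h, and the comparison asks which transcripts change on EDA2R activation. Recombinant ligand at a single dose and time in cultured cells is a limited model of muscle in an animal. Nothing in the labels says that the libraries of a condition came from separate cultures, so p-values measure the spread between these libraries, which may be technical.

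Counts on genes summed to 29444155 to 29746863 per library. Normalized counts below are counts scaled with edgeR's TMM factors to the mean library size, fold changes are on the log2 scale as EDA-A2 minus control, and a gene was called when edgeR's quasi-likelihood test gave it a p-value under 0.05 after adjustment over all genes tested (Benjamini-Hochberg). Of 15173 genes tested, 694 (4.57%) were called, 371 higher (2.45%) and 323 lower (2.13%) after EDA-A2. Scaling to total counts gave 485 higher and 194 lower calls. With TMM scaling, 1154 genes were higher and 1218 lower at an unadjusted p-value under 0.05 by edgeR. The cultures carried the defining transcripts of myotubes, such as the embryonic myosin Myh3 with 156193 to 236852 normalized counts. Of the macrophage markers, Ptprc and Adgre1 had at most 2 counts in any library, whereas Mrc1 had 168 to 288 and Cd68 had 54 to 81. The smooth muscle myosin Myh11 had 5 counts in each.

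Small heat shock proteins are chaperones that need no ATP. Through a shared alpha-crystallin domain they form oligomers that hold unfolding proteins until ATP-driven chaperones of the HSP70 and HSP90 families refold them. In striated muscle several of them sit at the Z-disc, on titin, filamin, desmin and actin, where contraction strains proteins, and BAG3 links the small heat shock protein HSPB8 to HSPA8 so that damaged filamin is sent to autophagy. Folding of the myosin motor itself is the task of UNC45B together with HSP90, and SMYD1 is a muscle lysine methyltransferase that associates with myosin.

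Of the 10 genes, 5 fell after EDA-A2 and none rose. Those that fell were the small heat shock protein genes Cryab, Hspb7, Hspb2 and Hspb1 and the methyltransferase gene Smyd1, by 20.6% to 35.9%. A share of 2.13% of all genes tested was called lower, which is given as background to the count of these named genes and not as a test of them. At an unadjusted p-value under 0.05 edgeR and DESeq2 both had 0 members higher. The median log2 fold change was -0.27 over the members and -0.00 over all genes tested. In 8 of the 10 members both EDA-A2 libraries lay below both control libraries and in none did both lie above, whereas 22.2% of all genes tested showed the first pattern and 22.8% the second.

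**Figure D1:**
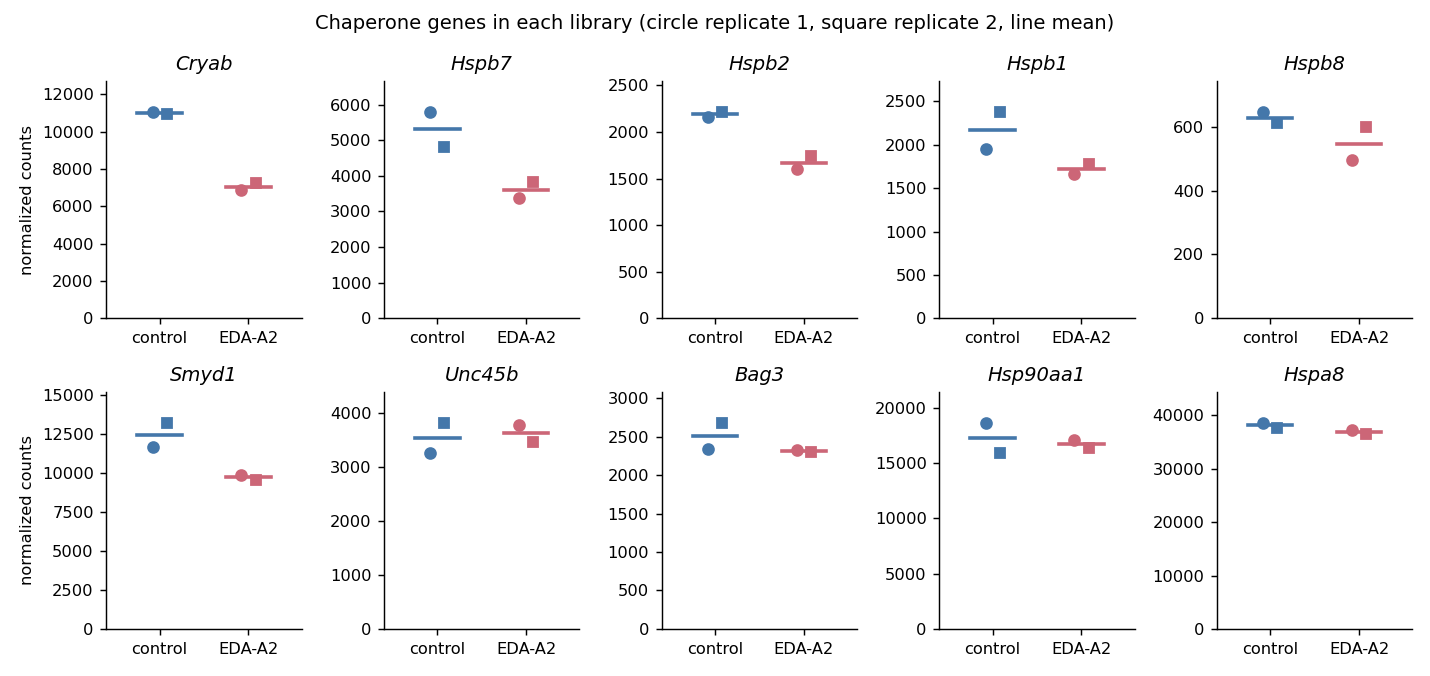
Normalized counts (vertical axes from 0) of the 10 genes in control (blue) and EDA-A2 (red) libraries, with circles for replicate 1, squares for replicate 2 and a line at the mean of each condition. Cryab, Hspb7, Hspb2, Hspb1 and Smyd1, the 5 genes called lower, have both red points below both blue points, as do Hspb8, Bag3 and Hspa8, while Unc45b and Hsp90aa1 overlap.

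Cryab (ENSMUSG00000032060, chromosome 9 from 50651859 to 50668567 of GRCm39, plus strand) encodes alpha B-crystallin, a small heat shock protein of lens, heart and skeletal muscle that binds desmin and titin. Cryab stood at 11059 and 10949 normalized counts in control and at 6852 and 7251 after EDA-A2. The control values differed by far less than the gap between the conditions, and the groups did not overlap. From a mean of 11004 ± 77.9 (SD, n = 2) Cryab fell to 7052 ± 281.7, a log2 fold change of -0.64 (standard error 0.07, 95% interval -0.79 to -0.50). The adjusted p was 4.17e-05 by edgeR's quasi-likelihood test, which placed Cryab at rank 42 among the genes tested by p-value. Cryab was the most abundant of the 5 small heat shock protein genes and held 51.2% and 52.2% of their summed normalized counts in control, against 49.0% and 47.7% after EDA-A2. That sum was 21615 and 20972 in control and 13976 and 15197 after EDA-A2.

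Hspb2 (ENSMUSG00000038086, chromosome 9 from 50662378 to 50663858 of GRCm39, minus strand) is the neighbour of Cryab and is transcribed in the opposite direction. The starts of their canonical transcripts in GENCODE lie 329 bases apart. Its product HSPB2 binds the myotonic dystrophy protein kinase and forms complexes with HSPB3. Hspb2 had 2164 and 2215 normalized counts in control and 1602 and 1740 in EDA-A2 libraries. The groups were apart by more than the spread within either. Its log2 fold change of -0.39 (standard error 0.07, 95% interval -0.55 to -0.23) had an adjusted p of 0.00552 by edgeR. In this pair Cryab fell by 35.9% and Hspb2 fell by 23.7%, and their 95% intervals overlapped between -0.55 and -0.50. In the current GENCODE annotation some transcripts of Cryab run through Hspb2 and share 757 exonic bases with it on the other strand. The library kit was stranded, but the strand option of the counting is not given in the sources used here, so reads of the pair cannot be told apart in that stretch if strand was not used. The same holds for 871 exonic bases that Cryab shares with 2310030G06Rik.

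Hspb7 (ENSMUSG00000006221, chromosome 4 from 141148090 to 141152625 of GRCm39, plus strand) encodes the cardiovascular heat shock protein, which is enriched in heart and skeletal muscle and binds filamin C. It had 5792 and 4818 normalized counts in control libraries and 3364 and 3832 in EDA-A2 libraries. Control replicate 1 was the highest of the 4 and the conditions did not overlap. From 5305 ± 688.9 Hspb7 fell to 3598 ± 330.8, a log2 fold change of -0.56 (standard error 0.09, 95% interval -0.75 to -0.37, adjusted p = 0.00154 by edgeR).

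Hspb1 (ENSMUSG00000004951, chromosome 5 from 135916760 to 135918417 of GRCm39, plus strand), the gene of the actin-associated protein known as HSP25 in mouse and HSP27 in human, showed the smallest of the called changes. Its normalized counts were 1953 and 2379 in control and 1662 and 1776 after EDA-A2. Control replicate 1 was closer to EDA-A2 replicate 2 than to the other control library. The log2 fold change was -0.33 (standard error 0.09, 95% interval -0.53 to -0.14) with an adjusted p of 0.0483 by edgeR, just under the threshold. Without control replicate 2 it shrank to -0.18 (adjusted p = 0.344 by edgeR). The call was lost with any 1 library left out and under 5 of the 8 settings that kept all libraries, among them DESeq2 (adjusted p = 0.0549). Copies of Hspb1 at least 95% identical over 200 bases, 2 genes in all, together held 0.400% as many counts as Hspb1. Reads that match Hspb1 and a copy may be among the alignments listed as not unique (4.56% to 4.76%), which this share does not show.

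Hspb8 (ENSMUSG00000041548, chromosome 5 from 116546409 to 116561084 of GRCm39, minus strand), the partner of BAG3, was the least abundant of the 10. It had 646.0 and 610.1 normalized counts in control and 496.0 and 598.5 in EDA-A2 libraries. EDA-A2 replicate 2 nearly reached the lower control library. Hspb8 was not called (log2 fold change -0.20, standard error 0.11, 95% interval -0.43 to 0.03, adjusted p = 0.417 by edgeR), and its interval includes both no change and the value of Hspb1.

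Outside the 10, the list of small heat shock proteins holds Hspb3, Hspb6, Hspb9 and Cryaa. Hspb3, the partner of HSPB2 in muscle, fell from 657.3 and 620.2 normalized counts in control to 474.4 and 430.5 after EDA-A2 (log2 fold change -0.50, standard error 0.10, adjusted p = 0.00889 by edgeR). Hspb6, which encodes HSP20, a phosphoprotein of smooth and striated muscle, had the only positive value of the list. It had 456.4 and 461.8 normalized counts in control and 544.0 and 511.0 after EDA-A2, which was not called (log2 fold change 0.20, standard error 0.10, adjusted p = 0.369 by edgeR). Hspb6 shares 464 exonic bases with Lin37 and 198 with Proser3 on the other strand. Cryaa, the lens form, had 0 counts in every library, which allows up to 3 counts or 0.101 to 0.102 CPM, and Hspb9 had 1 count in 1 library. Of the 7 small heat shock protein genes tested, 5 were called lower and 0 higher, beside 2.13% and 2.45% of all genes tested. All of the 5 but Hspb3 are members already counted above. The median log2 fold change of the list was -0.39. At an unadjusted p-value under 0.05 the number higher was also 0. DESeq2 called 4 lower and 0 higher, beside 271 lower of all 15173 genes tested.

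Promoter windows were taken from RefSeq (GRCm38.p6, from 250 bases before to 50 bases after the start), which matched 6 of the 10 genes: Hspb1, Hspb7, Hspb8, Bag3, Unc45b and Smyd1. Cryab, Hspb2, Hsp90aa1 and Hspa8 were not matched. Heat shock genes are classically switched on by heat shock factors bound to alternating GAA and TTC units, each 2 bases from the next. The windows were searched for pairs of units (GAANNTTC or TTCNNGAA, each its own reverse complement, so that both strands are covered) and for runs of 3 units. The stretches before the start of the 3 genes that fell and were matched follow, with pairs of units in capitals. They lie at chr5:135887669-135887918 (Hspb1, plus strand), chr4:141420529-141420778 (Hspb7, plus strand) and chr6:71262282-71262531 (Smyd1, minus strand) of GRCm38.p6.
Hspb1: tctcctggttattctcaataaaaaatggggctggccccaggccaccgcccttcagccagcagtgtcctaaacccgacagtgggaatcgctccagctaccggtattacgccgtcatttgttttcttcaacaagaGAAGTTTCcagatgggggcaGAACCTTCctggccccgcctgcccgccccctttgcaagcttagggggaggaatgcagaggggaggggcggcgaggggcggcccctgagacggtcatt
Hspb7: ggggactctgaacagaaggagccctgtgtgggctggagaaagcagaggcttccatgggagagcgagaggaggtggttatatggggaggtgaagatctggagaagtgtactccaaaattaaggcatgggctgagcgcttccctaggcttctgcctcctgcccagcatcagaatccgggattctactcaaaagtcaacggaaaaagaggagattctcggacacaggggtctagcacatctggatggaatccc
Smyd1: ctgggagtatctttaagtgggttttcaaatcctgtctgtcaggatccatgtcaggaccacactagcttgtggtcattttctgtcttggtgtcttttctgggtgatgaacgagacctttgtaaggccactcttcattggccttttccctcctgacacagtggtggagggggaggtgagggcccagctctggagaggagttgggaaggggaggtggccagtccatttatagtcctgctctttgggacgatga

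The Hspb1 window held 2 such pairs, GAAGTTTC and GAACCTTC, and those of Hspb7, Smyd1 and Unc45b held none. Hspb8 and Bag3 held 1 each, after the start. A pair occurred in 15.1% of all 32851 windows, so 3 of 6 genes is a description of these sequences. A run of 3 units was found in none of the 6 and in 0.603% of all windows. Elements of other factors were searched by their consensus after the expression values were seen. The κB element of NFκB matched 1 of the 6, Unc45b, against 8.46% of all windows, and the MEF2 and CArG elements of muscle genes matched none of them, against 3.19% and 1.63%. A match is not a bound site, and a missing one says only that these letters are not in this window.

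The myosin-directed genes Smyd1 and Unc45b differed in their values. Smyd1 (ENSMUSG00000055027, chromosome 6 from 71190923 to 71299217 of GRCm39, minus strand) had 11645 and 13208 normalized counts in control and 9844 and 9552 after EDA-A2. Both EDA-A2 libraries were below the lower control library. Smyd1 fell from 12426 ± 1105 to 9698 ± 206.8, a log2 fold change of -0.36 (standard error 0.07, 95% interval -0.52 to -0.20, adjusted p = 0.0103 by edgeR). Unc45b (ENSMUSG00000018845, chromosome 11 from 82798587 to 82836306 of GRCm39, plus strand) had 3250 and 3820 normalized counts in control and 3778 and 3468 in EDA-A2 libraries. Both EDA-A2 libraries lay between the control libraries. Unc45b shares 1633 exonic bases with Nle1 on the other strand. Its log2 fold change of 0.04 (standard error 0.08, 95% interval -0.14 to 0.21, adjusted p = 0.902 by edgeR) turned negative without control replicate 1 (-0.07) or EDA-A2 replicate 1 (-0.03). The 95% intervals of Smyd1 and Unc45b did not overlap, and the difference between the genes was not tested.

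Among 10 genes for SMYD methyltransferases, UNC45 proteins and myosin folding, Smyd1 was the only one called. All 10 were tested, and 4.57% of all genes tested were called. The other SMYD genes, Smyd2 to Smyd5, had log2 fold changes between -0.18 and 0.10. Unc45a, the general form of the myosin chaperone, stood at -0.13 (standard error 0.10, adjusted p = 0.61 by edgeR). Naca, whose muscle form skNAC is a partner of SMYD1, had a value of -0.04 (adjusted p = 0.863), though gene counts do not separate that form from the common one.

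Bag3 and Hspa8 form, with HSPB8, the complex of chaperone-assisted selective autophagy. Bag3 (ENSMUSG00000030847, chromosome 7 from 128125283 to 128148705 of GRCm39, plus strand) is the co-chaperone that joins the other two. It had 2340 and 2681 normalized counts in control and 2328 and 2294 after EDA-A2. Control replicate 2 stood above the other 3 libraries, which were close together. Bag3 was not called (log2 fold change -0.12, standard error 0.08, 95% interval -0.28 to 0.05, adjusted p = 0.527 by edgeR). Hspa8 (ENSMUSG00000015656, chromosome 9 from 40711630 to 40731039 of GRCm39, plus strand) encodes HSC70, the constitutive HSP70 of the cytosol. Its normalized counts were 38650 and 37610 in control and 37242 and 36459 after EDA-A2. The 4 libraries were close together, and Hspa8 was not called (log2 fold change -0.05, standard error 0.07, 95% interval -0.19 to 0.10, adjusted p = 0.821 by edgeR). As a fold change that interval ran from 0.874 to 1.07, and the sign was positive under scaling to total counts (0.00602). Near-identical copies held 0.499% as many counts as Hspa8 and 0.250% as many as Hsp90aa1. Reads that match a gene and its copy may be among the alignments listed as not unique (4.56% to 4.76%). These shares do not show how many such reads there were.

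Other genes of the same autophagy route moved in both directions. Synpo2, which encodes myopodin, the Z-disc partner that BAG3 binds through its WW domain, had 4459 and 4141 normalized counts in control and 8514 and 8243 after EDA-A2. The EDA-A2 libraries were close to each other and well above both control libraries. Synpo2 rose 1.95-fold, a log2 fold change of 0.96 (standard error 0.07, 95% interval 0.82 to 1.11, adjusted p = 7.6e-07 by edgeR). It shares 1181 exonic bases with a noncoding gene on its own strand. Synpo2 was the only gene called higher among the 96 tested from all chaperone and co-chaperone lists. At an unadjusted p-value under 0.05 by edgeR, 4 of these 96 were higher, beside 1154 of all 15173 genes tested. Flnc, the gene of filamin C, the actin crosslinker that this route degrades, had 46727 and 37199 normalized counts in control and 28926 and 28394 after EDA-A2. Flnc fell by 0.55 on the log2 scale (standard error 0.09, 95% interval -0.74 to -0.36, adjusted p = 0.00211 by edgeR). The ubiquitin ligase gene Stub1, which encodes CHIP, had a value of -0.06 (adjusted p = 0.768) and Sqstm1, the autophagy receptor p62, one of 0.01 (adjusted p = 0.976). Of the 7 genes of the route, 1 was called higher, 1 lower and 5 not, beside 2.45% higher and 2.13% lower of all genes tested.

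Hsp90aa1 (ENSMUSG00000021270, chromosome 12 from 110656842 to 110669166 of GRCm39, minus strand) encodes the stress-inducible cytosolic HSP90. It had 18664 and 15964 normalized counts in control and 17069 and 16362 after EDA-A2. The EDA-A2 libraries lay between the control libraries. Hsp90aa1 was not called (log2 fold change -0.05, standard error 0.08, 95% interval -0.22 to 0.12, adjusted p = 0.849 by edgeR), and its sign was positive under scaling to total counts (0.00551) and without control replicate 1 (0.07). Its constitutive relative Hsp90ab1 had 62186 and 61301 normalized counts in control and 66263 and 67003 after EDA-A2, which was not called either (log2 fold change 0.11, standard error 0.07, adjusted p = 0.505 by edgeR). Hspa8 and Hsp90aa1 together made up 0.188% and 0.179% of all gene counts in control, against 0.188% and 0.181% after EDA-A2.

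**Figure D2:**
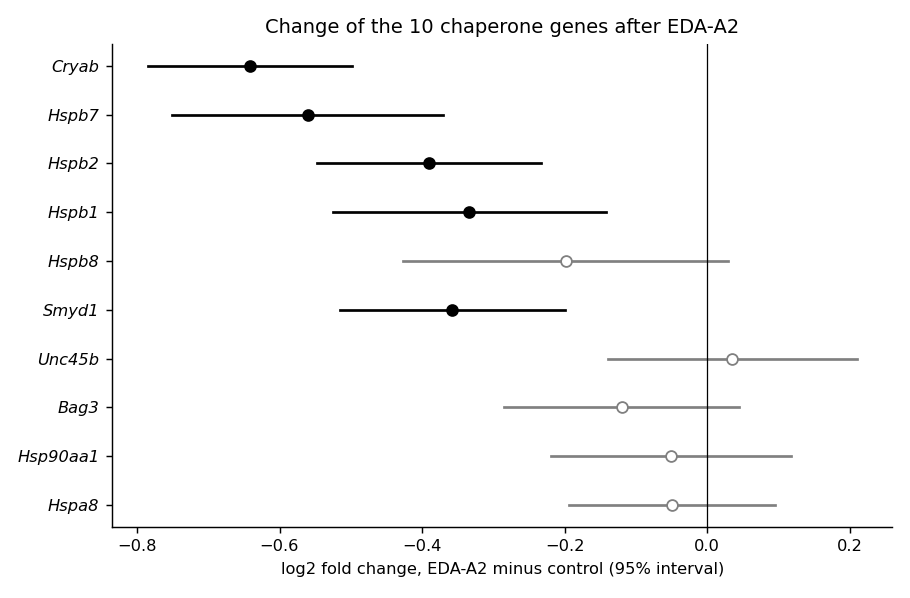
Log2 fold change, EDA-A2 minus control, with its 95% interval for each of the 10 genes, filled black where the adjusted p was under 0.05 and open grey otherwise. The intervals of Cryab (-0.79 to -0.50), Hspb7, Hspb2, Smyd1 and Hspb1 end below 0, and those of Hspb8, Bag3, Hspa8, Hsp90aa1 and Unc45b include 0.

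Levels were compared between genes as RPKM, that is library-scaled counts divided by the length of the canonical GENCODE transcript. Hspa8 was highest in every library, at 514.8 to 545.7 RPKM. In control libraries Cryab followed with 221.2 and 219.0 RPKM, above Hsp90aa1 with 178.7 and 152.9. After EDA-A2 this order was turned, with 137.1 and 145.0 RPKM for Cryab and 163.4 and 156.7 for Hsp90aa1. Both orders rest on canonical lengths of 1690 bases for Cryab and 3530 for Hsp90aa1. GENCODE lists 33 and 28 transcripts of these genes, and other lengths could change the order. Smyd1 came next at 98.0 to 135.5 RPKM over the 4 libraries and did not overlap with Cryab or Hsp90aa1. The ranges of Hspb1 (61.3 to 87.8), Hspb2 (52.2 to 72.1) and Hspb7 (41.0 to 70.6) overlapped, so that their order is not set. Bag3 (29.6 to 34.6), Unc45b (13.4 to 15.8) and Hspb8 (7.92 to 10.3) were lowest and did not overlap with each other. The place of Unc45b rests on a canonical transcript of 8176 bases, the longest of the 10.

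**Figure D3:**
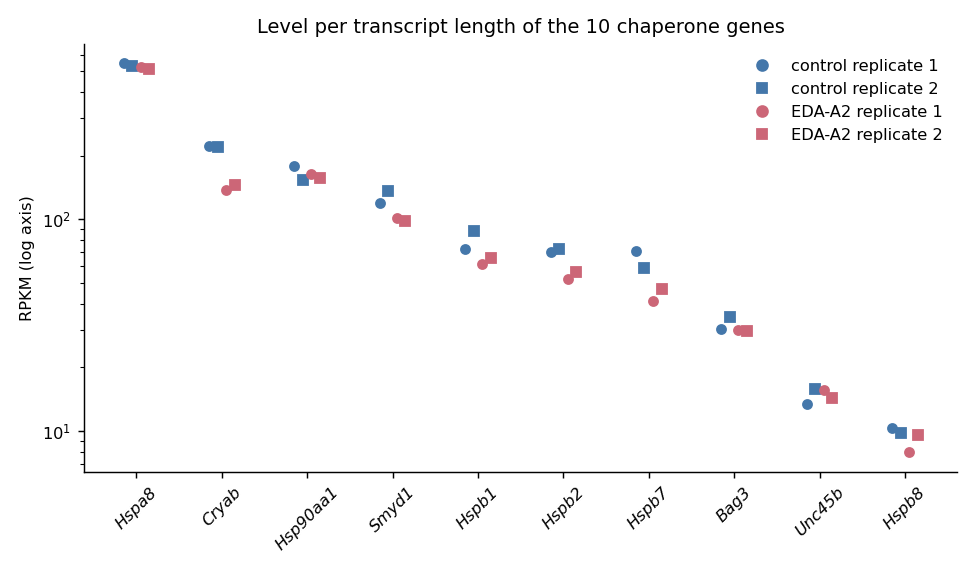
RPKM (log axis) of the 10 genes in each library, in order of their mean, with control in blue, EDA-A2 in red, circles for replicate 1 and squares for replicate 2. At the canonical lengths used, Cryab lies above Hsp90aa1 in both control libraries and below it in both EDA-A2 libraries. Levels run from 7.92 RPKM (Hspb8) to 545.7 RPKM (Hspa8).

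The wider chaperone system was described with 9 lists holding 99 genes, 96 of them tested. Over these, 9 genes were called lower and 1 higher. Without the members 4 were lower and 1 higher of 86, a share of lower calls of 4.65% beside 2.13% over all genes. Both counts include genes of the autophagy route that are not chaperones, Synpo2 (higher) and Flnc (lower). The HSP70 and HSP110 list had 15 genes tested and 1 called, Hspa1l, a testis-enriched relative of the inducible HSP70 genes, at 216.4 and 228.9 normalized counts in control and 150.9 and 131.7 after EDA-A2 (log2 fold change -0.66, adjusted p = 0.0207 by edgeR). DESeq2 called none of this list. Hspa1l shares 1778 exonic bases with a noncoding gene on the other strand. The heat-inducible Hspa1a and Hspa1b had log2 fold changes of -0.37 (adjusted p = 0.302) and -0.39 (adjusted p = 0.243). They are near-identical copies, at 115.0 to 162.4 and 132.3 to 197.6 normalized counts. The counting listed alignments that were not unique apart from genes (4.56% to 4.76%). Reads that match both copies may therefore be missing from both counts.

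Among 16 J-domain genes, which encode co-chaperones that bring clients to HSP70, Dnaja4 was called, beside 4.57% of all genes tested. It had 1299 and 1552 normalized counts in control and 1055 and 1135 after EDA-A2 (log2 fold change -0.38, standard error 0.09, adjusted p = 0.0278 by edgeR). Dnaja4 shares 1583 exonic bases with Skic8 on the other strand. No gene was called among 16 for HSP90 and its co-chaperones, 8 for BAG proteins and nucleotide exchange, 16 for chaperonin and prefoldin and 4 for heat shock factors. The numbers at an unadjusted p-value under 0.05 in these lists were 1, 2, 0 and 0, and DESeq2 called 0, 1, 0 and 0 of them, the 1 being Bag1 (adjusted p = 0.0365 by DESeq2). The smallest p-values belonged to Sugt1 (log2 fold change 0.16, adjusted p = 0.277), Bag1 (-0.24, adjusted p = 0.0525), Pfdn6 (-0.13, adjusted p = 0.539) and Hsf2 (-0.15, adjusted p = 0.328). Hsf1, the gene of the main heat shock factor, stood at -0.09 on the log2 scale (standard error 0.08, adjusted p = 0.689 by edgeR). List medians lay at -0.08 (HSP70 and HSP110), -0.00 (HSP90), -0.06 (BAG), -0.08 (J-domain), -0.04 (chaperonin), -0.05 (heat shock factors), -0.03 (SMYD and UNC45) and -0.06 (selective autophagy).

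**Figure D4:**
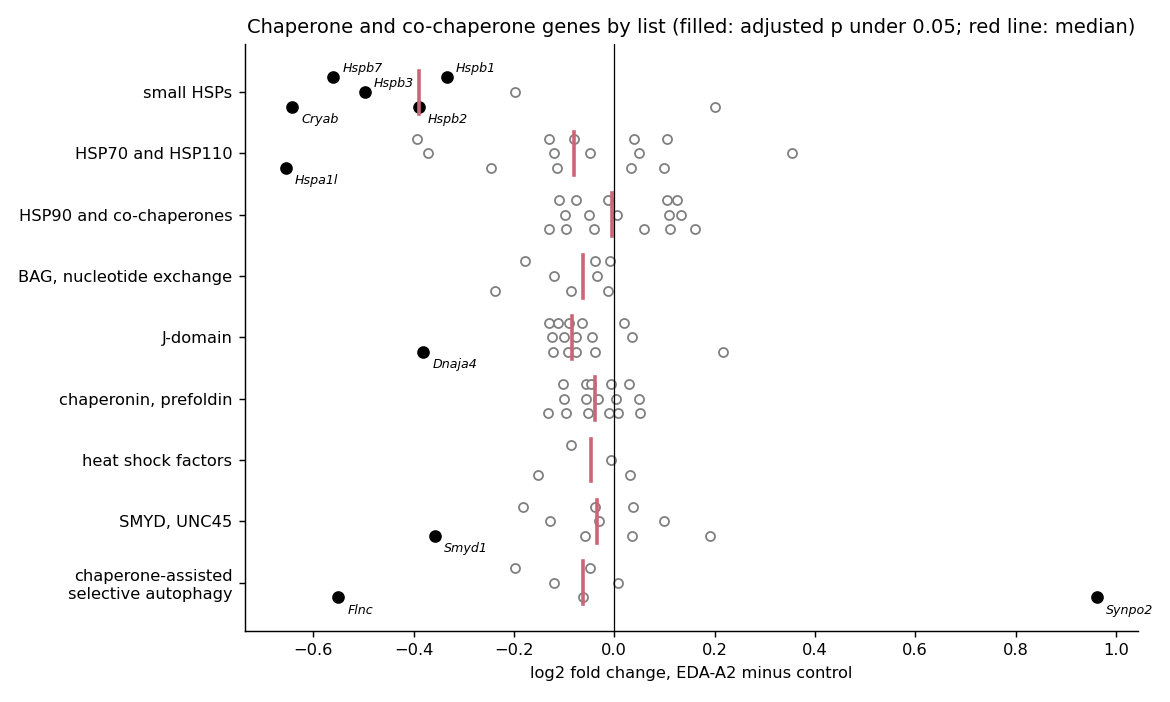
Log2 fold change, EDA-A2 minus control, of each tested gene in the 9 chaperone lists, filled and named where the adjusted p was under 0.05, with a red line at the list's median. The small heat shock proteins have the lowest median (-0.39), and Synpo2 at 0.96 is the only filled point above 0. Points of Hspa8, Bag3 and Hspb8 appear in more than 1 list.

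Markers of cell types were set beside these changes. The 8 myotube markers all had negative log2 fold changes and 2 of them fell, the embryonic myosin gene Myh3 (-0.57) and the skeletal actin gene Acta1 (-0.52), with a median of -0.21, beside the 2.13% of all genes called lower. At an unadjusted p-value under 0.05 edgeR had 5 of the 8 lower, beside 1218 of all 15173 genes tested. DESeq2 called 3, the third being the titin gene Ttn. Summed normalized counts of the 8 markers were 596469 to 631516 in control and 458399 to 463932 after EDA-A2, most of it from Myh3 and Acta1. The other 6 were not called by edgeR. Of these the creatine kinase gene Ckm stood at -0.36 (adjusted p = 0.0662), Ttn at -0.25 (adjusted p = 0.0867), the differentiation factor gene Myog at -0.18 and the fast troponin gene Tnnt3 at -0.16, while Des (desmin) and Mymk (the fusion protein myomaker) stood at -0.02 and -0.01. The sums of 3 markers of myoblasts were 4265 to 4941 in control and 4201 to 4393 after EDA-A2, those of 7 fibroblast markers 57054 to 58914 and 54378 to 55484, and those of 4 markers of dividing cells 19378 to 23059 and 21187 to 21536. Of the fibroblast markers Col3a1 held most of the sum, and Lum had 0 counts in every library. The 6 macrophage markers summed to 239.0 to 279.2 in control and 273.2 to 371.5 after EDA-A2, most of it from Mrc1 and Cd68 (log2 fold changes 0.32 and 0.30, adjusted p = 0.44 and 0.619 by edgeR), and the 4 endothelial markers to 31.9 to 36.3 and 29.5 to 36.3. No marker outside the myotube list was called by edgeR or DESeq2, and edgeR called 4.57% of all genes tested. All 3 myoblast markers and all 4 markers of dividing cells were tested. Only 6 of 7 fibroblast, 2 of 6 macrophage, 1 of 4 endothelial and 0 of 1 smooth muscle markers passed the filter and could be called. At an unadjusted p-value under 0.05 edgeR had 2 of the tested markers outside the myotube list lower (Pax7 and Col1a1) and 1 higher (Dcn), named here after their values were seen. In bulk RNA, fewer myotubes and less RNA per myotube cannot be told apart, and the part of the myotube markers in the fall of the small heat shock proteins and Smyd1 was not tested.

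The 5 called members had negative fold changes under every scaling, filter and test tried and with each library left out. Their calls were less stable. Without a filter on low counts, which raised the genes tested to 25545, only Cryab was called (adjusted p-values of the other 4 from 0.12 to 0.385 by edgeR). Without control replicate 1 or control replicate 2, edgeR called none of them and none of all genes tested (at an unadjusted p-value under 0.05, 1062 and 1245 higher and 1117 and 1204 lower). Their log2 fold changes in these fits were -0.63 to -0.65 for Cryab, -0.42 to -0.69 for Hspb7, -0.26 to -0.44 for Smyd1 and -0.37 to -0.41 for Hspb2. Without EDA-A2 replicate 1, Cryab, Hspb7 and Smyd1 were called, and without EDA-A2 replicate 2, Cryab, Hspb7 and Hspb2.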

How the data were processed

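RNA of 4 libraries of mouse primary myotubes was analysed. Per the labels and the study's methods, the authors made stranded mRNA libraries, trimmed reads with Trim Galore 0.6.5 after FastQC 0.11.9 and MultiQC 1.12, aligned them to GRCm39 with STAR 2.7.3a and deposited raw HTSeq 0.11.1 counts per gene. The strand option of the counting is not given in the sources used here. Lines of no gene (no feature 6.68% to 7.40%, ambiguous 0.946% to 0.986%, not unique 4.56% to 4.76%) were left out. Symbols came from GENCODE for 52610 of 53647 IDs.

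Genes passing edgeR's filter (minimum count 10, total 15) were fitted by condition with edgeR 4.0.16 in R 4.3.3 (TMM scaling, quasi-likelihood test, two-sided, Benjamini-Hochberg adjustment, threshold 0.05, 95% intervals). The code was tested on simulated data. DESeq2 1.42.0, other scalings and filters, a replicate term, robust dispersion and leaving out each library were alternatives. A count of 0 was bounded at 3 counts, for counting error only. Near-identical copies were found with blastn 2.17.0.

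The members and lists were chosen with earlier results of these data known. Named beside the members were, per list, up to 5 called genes by p-value or else the gene with the smallest p-value, the closest relatives of members whatever their values, and the 5 genes of at least 1000 normalized counts closest in pattern to the member with the smallest p-value.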

Additional observations from a re-analysis of the deposited data

How the results depend on the processing

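Under 12 alternatives all 5 called members stayed negative. Hspb1 lost its call with upper quartile factors (-0.33, adjusted p = 0.0572), total counts (-0.28, 0.133), no filter (-0.34, 0.385), DESeq2 (-0.34, 0.0549) and robust dispersion (-0.33, 0.0524). No filter also ended the calls of Hspb2 (-0.39, 0.12), Hspb7 (-0.56, 0.149) and Smyd1 (-0.36, 0.166) and left 1 member, 1 list gene and 22 of all genes called lower and 64 higher. More genes, 25545, were then tested. Scaling to total counts turned Hsp90aa1 (0.00551) and Hspa8 (0.00602) positive, called 2 list genes higher and 194 of all genes lower, and moved the median of all genes to 0.05. Deviations of replicate 1 from its condition mean correlated weakly between the conditions (r = 0.083 over 15173 genes). With 2 libraries a condition, this does not settle whether the replicate numbers pair the libraries. A replicate block called 5 members lower and 2 list genes higher. Of all genes it called 537 higher and 529 lower, against 371 and 323 without it.

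With each library left out in turn, where the lone library of a condition is assumed to vary like the others, log2 fold changes ranged from -0.68 to -0.60 for Cryab, -0.69 to -0.42 for Hspb7, -0.45 to -0.33 for Hspb2, -0.47 to -0.18 for Hspb1 and -0.44 to -0.26 for Smyd1. Unc45b ranged from -0.0745 to 0.16, negative without control replicate 1 (-0.0745) or EDA-A2 replicate 1 (-0.03), and Hsp90aa1 from -0.16 to 0.0682, positive without control replicate 1. Members called lower numbered 0 to 3, list genes 0 to 6 lower and 0 to 1 higher, and all genes 0 to 170 lower and 0 to 238 higher. All counts of 0 came without a control library. The cause of these changes was not tested. With 2 libraries a condition, changes as small as those of Hspb8 and Bag3 were not resolved.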

Other observations

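The pattern of Cryab over the 4 libraries was compared with that of 5649 protein-coding genes with at least 1000 normalized counts. For this the log2 CPM of each gene was centred on its own mean, so levels were not compared. The 5 genes closest in pattern were Actn2, Armh4, Myh3, Glul and Cobl, at root mean square differences of 0.0449 to 0.0593. Actn2 encodes alpha-actinin of the Z-disc (log2 fold change -0.65) and Myh3 embryonic myosin (-0.57). Glul, the gene of glutamine synthetase, had a value of -0.71. These are likenesses over 4 libraries that share their conditions.

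RefSeq promoter windows matched 82 of the 99 chaperone genes, with 102 windows, since some genes have more than 1 start. A pair of heat shock units was found in 25 of these windows (24.5%), which belong to 23 genes, and a run of 3 units in 7 windows (6.86%) of 5 genes (Chordc1, Dnajb6, Hspd1, Hspe1 and Hsph1). Over all windows the shares were 15.1% and 0.603%. None of these 5 genes was called by edgeR, beside 4.57% of all genes tested. So few genes do not show whether genes with such runs respond. The other elements, searched after the values were seen, were looked for in 15 windows of 12 genes (6 members and 6 others). The others were Hspb3, Hspb6, Synpo2, Flnc, Hspa1l and Dnaja4, all of them called but Hspb6. The MEF2 element matched 2 of the 15 windows, beside 3.19% of all windows. They belong to Synpo2, which rose, and Hspb3, which fell. The κB element matched 3 of the 15, beside 8.46% of all windows. They belong to Unc45b and Hspb6, which were not called, and Flnc, which fell. The CArG element matched none of the 15, beside 1.63%.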
